A study of Mus musculus with 8 samples.

Results

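The genes described here are 6 scavenger receptors, Msr1, Marco, Cd36, Scarb1, Olr1 and Cd68, found by their symbol in a table of 38026 genes, and all 6 were present. Their levels were measured by RNA-seq in mouse brain cells caught with magnetic beads against CD11b, an integrin subunit found on myeloid cells such as microglia, macrophages and granulocytes. For 5 libraries these were tumor-associated microglia and macrophages of medulloblastoma (TAMs), a tumor of the cerebellum, from C57BL/6 mice 68, 90, 61, 66 and 62 days old for TAM replicates 1 to 5. The other 3 libraries were normal microglia of the cerebral cortex of C57BL/6 mice 60 days old, and all RNA was prepared with Trizol after papain digestion, myelin depletion and bead capture. The groups therefore differ in brain region as well as in tumor, and the captured cells need not be of 1 type. Labels do not say whether the microglia libraries came from separate animals, so p-values measure the spread between these samples.

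Scavenger receptors are surface or endosomal proteins that bind modified lipoproteins, dead cells, bacterial walls and aggregated protein, and carry them to the lysosome. Their classes differ in structure and overlap in what they bind. MSR1 and MARCO are class A trimers with a collagenous stalk. CD36 and SR-B1, the product of Scarb1, are class B proteins that pass the membrane at both ends and handle fatty acids, oxidized lipoproteins and cholesteryl ester. LOX-1, the product of Olr1, is a C-type lectin of class E that binds oxidized low-density lipoprotein. CD68, or macrosialin, is a class D glycoprotein related to the LAMP proteins of the lysosome and is widely used as a marker of phagocytes. In the brain, MSR1, CD36 and CD68 are known from microglia that take up debris, while CD36 and SR-B1 are also known from vessel endothelium.

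All 6 genes were higher in TAMs than in microglia, by 1.64-fold for Scarb1 up to 34.6-fold for Marco as ratios of mean TPM (a level per transcript length, scaled to a fixed total per library). Cd68 was by far the most abundant, and Olr1 and Marco were near 0 in microglia. The calls of Cd36 and Marco were the least stable, because leaving out single libraries ended them. On log2(TPM + 1), limma called all 6 higher at an adjusted p of 0.05, against 8.22% of the 15262 genes tested. Olr1 and Marco reached 1 TPM, the filter for testing, in TAM libraries alone, so they had to be higher to be tested. The other 4 reached it in all 8 libraries. All 6 were chosen with earlier results of these data known, so the contrast with all tested genes is a description.

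TPM in these files carried a shift between groups. Over the tested genes the log2 fold change had a median of -0.65, and 56.4% of them were called lower in TAMs. On TPM rescaled by each library's median ratio to the mean library, that median was -0.04, and all 6 genes were again called higher, against 24.6% of tested genes called higher and 25.1% called lower. In the authors' deposited table, with its DESeq2 p-values adjusted here, all 6 were called higher too, against 17.6% of the genes with a p-value called higher and 16.0% called lower. These are the same libraries and no independent support. Rpl3, a ribosomal protein gene that every cell uses, was at 391 to 860 TPM in TAMs, against 1.65 to 2.79 TPM in microglia. The cause was not tested. Values below are TPM, and fold changes are on log2(TPM + 1), which understates changes of low genes, unless another scale is named.

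In mm10 coordinates, Msr1 (ENSMUSG00000025044) lies on chromosome 8 from 39581700 to 39642678, and Marco (ENSMUSG00000026390) on chromosome 1 from 120474538 to 120505024. Cd36 (ENSMUSG00000002944) lies on chromosome 5 from 17781690 to 17888801, with Scarb1 (ENSMUSG00000037936) on the same chromosome from 125277087 to 125341094. Olr1 (ENSMUSG00000030162) lies on chromosome 6 from 129485244 to 129507165, and Cd68 (ENSMUSG00000018774) on chromosome 11 from 69664213 to 69666153. No member shared exon bases with another annotated gene of GENCODE M21. At 95% identity the longest match of a member's transcript to another gene was 51 bases, in Scarb1, so near-identical copies that could split reads were not found.

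The bases before the starts of these genes were read for short motifs of factors active in macrophages. RefSeq windows on GRCm38.p6 were given for Cd68, Olr1, Marco and Cd36. The 250 bases upstream of the start are shown for the 3 genes whose RefSeq start lies within 17 bases of the end of the deposited gene, at chr11:69666171-69666420, chr6:129507166-129507415 and chr1:120505025-120505274, all on the minus strand. They are written 5′ to 3′ on the gene's strand, with capitals for matches to the AP-1 motif TGANTCA and, on either strand, the PU.1 core GAGGAA.
Cd68: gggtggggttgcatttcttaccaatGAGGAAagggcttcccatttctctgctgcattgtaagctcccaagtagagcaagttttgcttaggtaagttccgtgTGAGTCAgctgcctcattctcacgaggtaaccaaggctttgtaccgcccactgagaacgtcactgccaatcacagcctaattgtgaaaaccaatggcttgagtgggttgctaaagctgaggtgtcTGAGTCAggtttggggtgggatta
Olr1: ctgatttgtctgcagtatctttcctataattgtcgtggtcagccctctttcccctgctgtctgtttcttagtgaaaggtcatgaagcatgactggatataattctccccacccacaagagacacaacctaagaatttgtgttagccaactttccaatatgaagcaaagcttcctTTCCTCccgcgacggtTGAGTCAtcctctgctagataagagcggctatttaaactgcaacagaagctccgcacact
Marco: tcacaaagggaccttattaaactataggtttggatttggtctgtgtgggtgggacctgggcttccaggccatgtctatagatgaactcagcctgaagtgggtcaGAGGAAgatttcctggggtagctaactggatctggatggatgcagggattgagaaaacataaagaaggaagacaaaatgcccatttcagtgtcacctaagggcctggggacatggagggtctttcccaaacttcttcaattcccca
Cd68 held 2 AP-1 matches, starting 149 and 24 bases before the start, and 1 PU.1 match starting 225 bases before it. Olr1 held 1 AP-1 match, beginning 60 bases upstream, and 1 PU.1 match on the other strand, 76 bases upstream. Marco held 1 PU.1 match 146 bases upstream and no AP-1 match. The Cd36 window, which is not shown, held neither motif. Of all 32851 windows of this length, 6.75% held the AP-1 motif and 23.3% the PU.1 core, and none of the capitals overlap. The nuclear receptor half-site AGGTCA, on either strand, was found once in Olr1 and once in Cd36, against 14.0% of windows. The E-box CACGTG and the STAT motif TTCNNNGAA, present in 6.02% and 7.02% of windows, had no match in these 4 windows. The RefSeq start of Cd36 lies 52905 bases inside the deposited gene, so its window covers only 1 of its possible starts. These matches are letters in a window and do not show binding.

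Of the class A receptors, Msr1, which takes up modified lipoproteins and apoptotic cells, had 31.7, 91.6, 65.8, 53.0 and 43.5 TPM in TAM replicates 1 to 5, against 15.9, 16.7 and 14.0 TPM in microglia replicates 1 to 3. Every TAM library stood above every microglia library, with TAM replicate 2 highest and TAM replicate 1 nearest to microglia. The mean was 57.1 ± 23.0 TPM in TAMs (SD, n = 5), against 15.6 ± 1.38 TPM in microglia (SD, n = 3). This gave a log2 fold change of 1.73 (SE 0.30, limma adjusted p = 0.00159), the largest of the 6 genes on this scale, and 2.41 on rescaled TPM. Only 2.05% of tested genes had a larger log2 fold change.

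Marco, the class A receptor that binds bacteria and particles and is best known from alveolar and marginal zone macrophages, had 1.28, 6.85, 1.1, 1.19 and 0.574 TPM in TAM replicates 1 to 5. It had 0.144, 0.0203 and 0.0259 TPM in microglia replicates 1 to 3. The groups did not overlap, but TAM replicate 2 alone held several times the level of any other TAM library. Its log2 fold change of 1.32 (SE 0.47, limma adjusted p = 0.0374) became 3.36 with a pseudocount of 0.1 and 0.62 with age as a covariate, and stayed called. The authors' deposited table gives a log2 fold change of 5.04. The ratio of mean TPM was 34.6, but 16.3 without TAM replicate 2 and 95.1 without microglia replicate 1, so its size is poorly fixed. The call was lost without TAM replicate 1 or 4, or without any 1 microglia library (adjusted p = 0.0514 to 0.105), and held without TAM replicate 2 (log2 fold change 0.92, limma adjusted p = 0.00527).

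**Figure D1:**
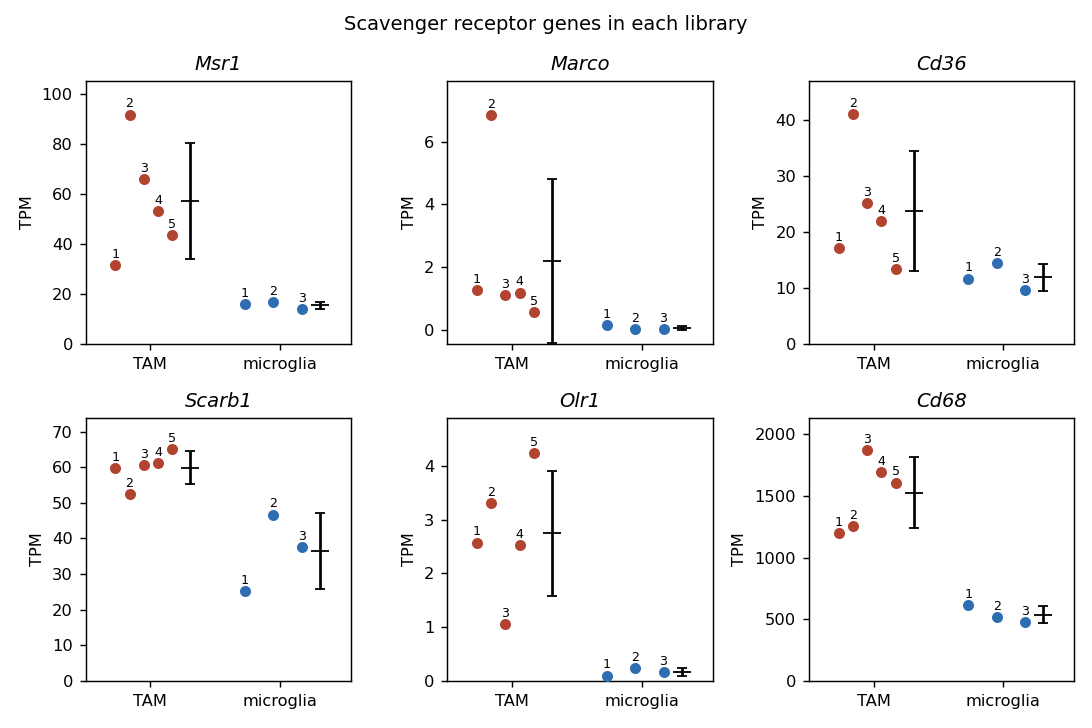
Level of each receptor gene in TPM (vertical axes, linear, 1 scale per gene) in 5 TAM and 3 microglia libraries, with replicate numbers above the points and the mean ± SD beside them. Every TAM point lies above every microglia point except for Cd36, where TAM replicate 5 at 13.4 TPM lies below microglia replicate 2 at 14.5 TPM.

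Of the class B receptors, Cd36, which imports long-chain fatty acids and oxidized lipoproteins, had 17.2, 41.1, 25.2, 22.0 and 13.4 TPM in TAM replicates 1 to 5, against 11.7, 14.5 and 9.65 TPM in microglia replicates 1 to 3. TAM replicate 5 fell inside the microglia range, so the groups overlap, and TAM replicate 2 was again the highest. Means were 23.8 ± 10.7 TPM in TAMs (SD, n = 5), against 11.9 ± 2.44 TPM in microglia (SD, n = 3). A log2 fold change of 0.86 (SE 0.32) passed narrowly (limma, adjusted p = 0.0436) and was 1.52 on rescaled TPM (adjusted p = 0.0110), where the groups did not overlap. On TPM the call was lost without TAM replicate 3 or 4, or without any 1 microglia library (adjusted p = 0.0638 to 0.144). With the age of the mice as a covariate the log2 fold change was 0.49 and not called (limma, adjusted p = 0.15). All microglia mice were 60 days old and all TAM mice older. The age term therefore rests on the TAM libraries alone, among them TAM replicate 2 at 90 days.

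Scarb1, whose product exchanges cholesteryl ester with high-density lipoprotein, had 59.7, 52.5, 60.6, 61.2 and 65.2 TPM in TAM replicates 1 to 5, against 25.2, 46.7 and 37.6 TPM in microglia replicates 1 to 3. It was the most even of the 6 genes among TAMs, the highest library being 1.24 times the lowest, against 1.85 times among microglia. No TAM library reached down to the highest microglia library. Its log2 fold change of 0.74 (SE 0.18, limma adjusted p = 0.0075) was the smallest of the 6, and 1.44 on rescaled TPM.

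Both class B genes are also expressed by vessel endothelium, and endothelial markers moved the other way. All 18 endothelial markers were lower in TAMs on both scales, against 56.4% of all tested genes on TPM and 25.1% on rescaled TPM. Their summed level was 36.9 to 163 TPM in TAMs, against 1071 to 3261 TPM in microglia. No marker was at 0 in all libraries of a group. Among microglia libraries the endothelial sum was 1071, 3261 and 2471 TPM in replicates 1 to 3, the order of Scarb1 but not of Cd36, which was lowest in replicate 3, over 3 libraries only. Platelets also carry CD36: of the 5 tested of 10 platelet markers 1 was higher and 4 lower on TPM, and 1 and 2 on rescaled TPM. Over all tested genes the shares were 8.22% and 56.4% on TPM, and 24.6% and 25.1% on rescaled TPM. All 10 summed to 4.65 to 9.39 TPM in TAMs, against 57.7 to 69.2 TPM in microglia, with Gp6 at 0 in every microglia library. Gp9 alone had 0.173 to 1.49 TPM in TAMs, against 44.1 to 56.6 TPM in microglia, and the other 9 summed to 3.83 to 9.01 TPM in TAMs, against 10.5 to 14.6 TPM in microglia. Without microglia replicate 2 or 3 the lower platelet markers were 2 and 1 of 4 tested. The part of such cells in the class B values was not tested. In bulk libraries fewer cells of a type and less RNA per cell cannot be told apart.

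Olr1, the class E receptor for oxidized low-density lipoprotein, known from endothelium, macrophages and some neutrophils, had 2.57, 3.31, 1.06, 2.52 and 4.24 TPM in TAM replicates 1 to 5. In microglia replicates 1 to 3 it had 0.0992, 0.234 and 0.164 TPM. The groups were far apart, and TAM replicate 3 was the lowest of the TAM libraries. Means were 2.74 ± 1.17 TPM in TAMs (SD, n = 5), against 0.166 ± 0.0674 TPM in microglia (SD, n = 3), a ratio of 16.5. Its log2 fold change was 1.62 (SE 0.29, limma adjusted p = 0.00184), 3.33 with a pseudocount of 0.1, and 4.74 in the authors' deposited table. Depth is unknown from TPM, so no counting interval can be given for such low levels.

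Cd68, the class D glycoprotein of late endosomes and lysosomes, had 1199.8, 1255, 1869, 1689.7 and 1607 TPM in TAM replicates 1 to 5, against 612, 515 and 479 TPM in microglia replicates 1 to 3. The lowest TAM library lay well above the highest microglia library. Means were 1524 ± 288 TPM in TAMs (SD, n = 5), against 535 ± 69.1 TPM in microglia (SD, n = 3), with a log2 fold change of 1.49 (SE 0.18, limma adjusted p = 0.000295), and 2.21 on rescaled TPM. This was the lowest adjusted p of the 6 genes on TPM. Ranked by TPM among all genes, Cd68 was placed 43 to 76 in TAMs and 197 to 258 in microglia.

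**Figure D2:**
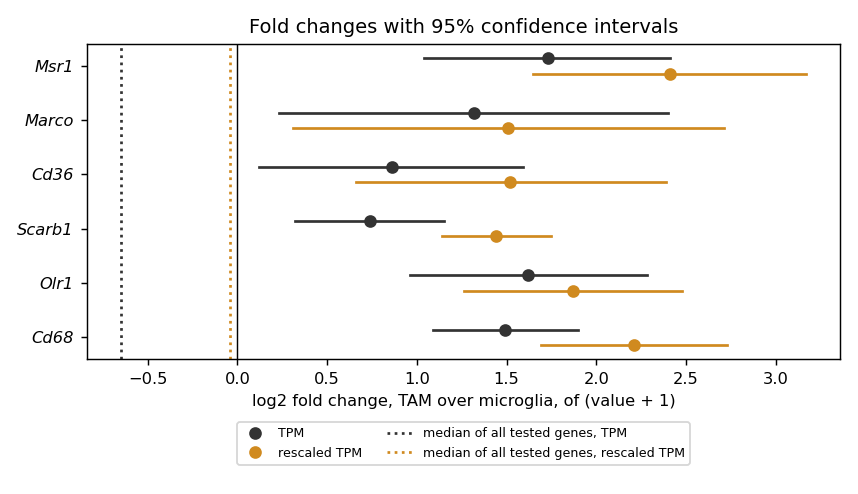
Log2 fold change of TAMs over microglia of (value + 1) for each receptor gene (horizontal axis), with 95% confidence intervals from limma, on TPM in black and on rescaled TPM in orange; dotted lines mark the median of all tested genes. All intervals lie above 0, that of Cd36 on TPM reaching down to 0.12 and that of Marco to 0.23.

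Without overlap between groups were 5 of the 6 genes, all but Cd36, against 7.97% of tested genes with every TAM library above every microglia library. On rescaled TPM it was all 6, against 24.4%. Olr1 and Marco are among them on both scales and reached 1 TPM in TAM libraries alone, so they had to be higher to be tested. That leaves Msr1, Scarb1 and Cd68 on TPM, and Cd36 as well on rescaled TPM. Rescaled values and deposited fold changes keep the direction of each gene.

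The order of levels was similar in both groups. Cd68 made up 86.5% to 92.7% of the summed TPM of the 6 genes in TAMs and 86.8% to 92.0% in microglia. The sum was 1312 to 2023 TPM in TAMs, against 540.0 to 665 TPM in microglia. Below Cd68, Scarb1 and Msr1 could not be ordered in TAMs, where Msr1 was the higher in replicates 2 and 3 and Scarb1 in replicates 1, 4 and 5. In microglia Scarb1 was above Msr1 in every library. Cd36 came next in all 8 libraries, while the ranges of Olr1 and Marco overlapped in both groups. Ranked among all genes, Msr1 was placed 1131 to 2954 in TAMs and 6649 to 8119 in microglia. Scarb1 was placed 1591 to 1974 in TAMs and 3556 to 4922 in microglia.

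Ratios of a pair of these genes within a library do not depend on the scaling, and are given as a description. Msr1 stood at 1.85 to 3.25 times Cd36 in TAMs and at 1.15 to 1.45 times in microglia, without overlap. Against Cd68, by contrast, Msr1 was at 0.0264 to 0.0730 in TAMs and at 0.0260 to 0.0324 in microglia, which overlap. Scarb1 was at 0.0324 to 0.0497 of Cd68 in TAMs and 0.0411 to 0.0906 in microglia, which overlap as well. Scarb1 stood at 15.4 to 57.2 times Olr1 in TAMs and at 199 to 254 times in microglia, so every TAM library had more Olr1 per Scarb1 than any microglia library. Ratios were computed for every pair of the 6 genes, and only some are given. Pairs of Marco or Olr1 with another member were without overlap, except Marco with Olr1. Both genes were near 0 in microglia and reached 1 TPM in TAM libraries alone. Their ratios to the other members therefore add little to their own difference. The pairs Msr1 with Scarb1, and Cd36 with Scarb1 or Cd68, overlapped. No test was run on these ratios, and ratios with genes outside the 6 were not computed.

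TAM libraries differed among themselves most in Marco, whose SD of log2 TPM was 1.33, and least in Scarb1 at 0.11. Msr1, Cd36 and Marco were each highest in TAM replicate 2, from the mouse of 90 days, the oldest. Some marker sums of that library lay outside those of the other TAM libraries, though the outlier test described below flagged no marker sum in it. Its 12 neutrophil markers summed to 672 TPM, against 249 to 379 TPM in the other TAM libraries and 435 to 482 TPM in microglia. Csf3r, a cytokine receptor gene, made up 389 to 447 TPM of the microglia sums and 99.4 to 223 TPM of the TAM sums. The other 11 markers summed to 573 TPM in TAM replicate 2 and 82.5 to 203 TPM in the other TAM libraries, against 35.1 to 54.9 TPM in microglia, where Ly6g was at 0 in every library. Its border macrophage markers summed to 2553 TPM against 1078 to 1779.5 TPM in the other TAM libraries, and its 10 defining microglia and macrophage markers to 3878 TPM against 7487 to 9108 TPM. Of the neutrophil list 4 were higher and 2 lower of 9 tested, and on rescaled TPM 5 and 0. For this list and the next 2, the shares over all tested genes were 8.22% higher and 56.4% lower. On rescaled TPM they were 24.6% and 25.1%. Of the 12 border macrophage markers 3 were higher and 5 lower, and on rescaled TPM 3 and 3. On TPM 8 were lower without TAM replicate 2, and 3 without microglia replicate 1 or 2. The 12 monocyte-derived markers had 6 higher and 1 lower, and on rescaled TPM 7 and 1. They had sums of 5387 to 11847 TPM in TAMs, against 933 to 1249.8 TPM in microglia. Lyz2, a lysozyme gene, carried these sums, at 5005 to 11603 TPM in TAMs, against 574 to 986 TPM in microglia. The other 11 summed to 244 to 842 TPM in TAMs, with TAM replicate 2 highest, and to 180.5 to 442 TPM in microglia, which overlap. The part of other myeloid cells in the receptor levels was not tested. Without TAM replicate 2 all 6 genes were still called higher.

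**Figure D3:**
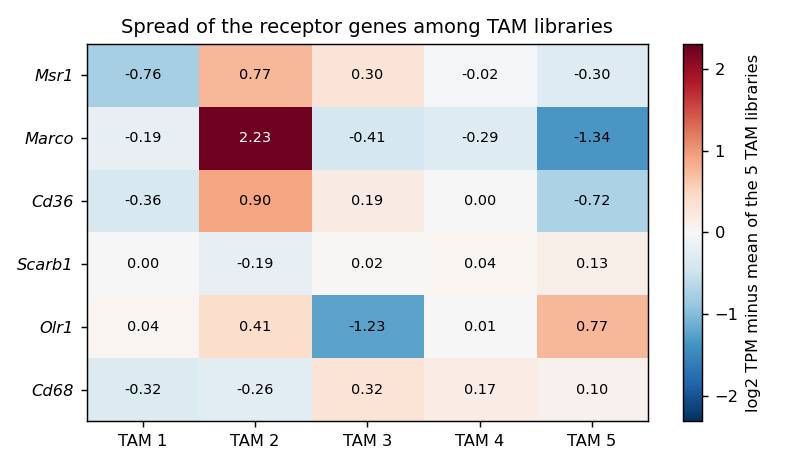
Log2 TPM of each receptor gene in each TAM library minus its mean over the 5 TAM libraries (colour and printed value). TAM replicate 2 is highest for Msr1 at 0.77, Marco at 2.23 and Cd36 at 0.90, while Scarb1 stays within -0.19 to 0.13.

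Of the 10 defining markers of microglia and macrophages none was at 0 in all libraries of a group. In TAMs 1 was higher (Aif1) and 6 lower, and on rescaled TPM 2 and 5. Over all tested genes 8.22% were higher and 56.4% lower, and on rescaled TPM 24.6% and 25.1%. Itgam, which encodes CD11b, was at 191 ± 38.5 TPM in TAMs (SD, n = 5), against 636 ± 16.1 TPM in microglia (SD, n = 3), and the groups did not overlap. Csf1r, the receptor these cells need to survive, averaged 1013 ± 184 TPM in TAMs, against 3246 ± 154 TPM in microglia. Tmem119 (log2 fold change -3.49) and P2ry12 (-3.25), known from resting microglia, also fell on limma's test. Markers of other brain cells were lower: 10 of 11 mural, 10 of 12 astrocyte and 8 of 8 tested oligodendrocyte markers. That compares with 56.4% of all tested genes. On rescaled TPM 9, 9 and 7 were lower, against 25.1%. Their sums were 13.2 to 42.1, 17.5 to 79.1 and 45.7 to 57.3 TPM in TAMs. In microglia they were 359 to 946, 130.5 to 809 and 167 to 862 TPM. Opalin was at 0 in every TAM library. Without single microglia libraries 7 mural markers were tested, and 4 to 6 of them were lower. Granule lineage markers had 3 higher and 2 lower of 10 tested on both scales, against the same shares of all tested genes. Their sums were 6.90 to 84.2 TPM in TAMs, against 16.6 to 68.2 TPM in microglia. Atoh1 was at 0 in every microglia library. Without any 1 microglia library 1 was higher.

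Other genes of the scavenger receptor classes went both ways. Of 17 tested of 21 other receptors 4 were higher and 7 lower (6 and 3 on rescaled TPM), where 8.22% of all tested genes were higher and 56.4% lower (24.6% and 25.1% on rescaled TPM), with a median log2 fold change of -0.60 beside -0.65 for all tested genes. Clec7a, the beta-glucan receptor dectin-1, was at 371 ± 138 TPM in TAMs (SD, n = 5), against 13.5 ± 5.12 TPM in microglia (SD, n = 3) (log2 fold change 4.64, SE 0.36, limma adjusted p = 5.41e-05). Cxcl16, a membrane chemokine that also binds oxidized lipoprotein, was at 206 ± 15.5 TPM in TAMs, against 96.6 ± 13.7 TPM in microglia (log2 fold change 1.09). Scara3 and Scarf2 fell on both scales, with log2 fold changes of -2.83 and -1.42 on TPM. Scara3 differed widely among microglia libraries, at 1.55 to 18.4 TPM. Without microglia replicate 2 or 3 the lower receptors were 3 and 2 of 16 tested. Of the LAMP relatives of Cd68, Lamp1, a major glycoprotein of the lysosome membrane, was at 1362 ± 190 TPM in TAMs, against 657 ± 47.5 TPM in microglia (log2 fold change 1.04), the only call among the 2 tested of 4 on TPM. Lamp3 was at 0 in every TAM library.

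Lipoprotein receptors and sorting receptors of the sortilin family had 2 higher and 5 lower of 9 tested (4 and 2 rescaled), with a median log2 fold change of -0.66. The share called lower on TPM and the median were near those of all tested genes, 56.4% and -0.65. Sorl1, a sorting receptor of endosomes, was at 24.1 ± 4.61 TPM in TAMs (SD, n = 5), against 3.36 ± 1.12 TPM in microglia (SD, n = 3), with a log2 fold change of 2.54 (limma adjusted p = 9.82e-05). Lsr, a lipoprotein receptor also known from brain endothelium, had a log2 fold change of -3.40. Sort1 was lower on TPM at -0.84 and not called on rescaled TPM at -0.13. Without microglia replicate 2 or 3 the lower receptors were 3 of 9.

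Genes that release lipid for uptake or handle it afterwards were mostly higher. The list was chosen with earlier results of these data known, so its contrast with all tested genes is a description. Of 22 genes 13 were higher and 5 lower (15 and 1 rescaled), against 8.22% and 56.4% of all tested genes (24.6% and 25.1% rescaled), with a median log2 fold change of 1.18. Lpl, the lipase that frees fatty acids from lipoproteins, was at 142 ± 39.3 TPM in TAMs (SD, n = 5), against 6.15 ± 1.04 TPM in microglia (SD, n = 3) (log2 fold change 4.29, limma adjusted p = 1.31e-05). Plin2, the coat of lipid droplets, was at 435 ± 88.5 TPM in TAMs, against 61.6 ± 5.34 TPM in microglia (log2 fold change 2.78). Nceh1, which hydrolyses stored cholesteryl ester, and Abcg1, which exports cholesterol, had log2 fold changes of 2.10 and 1.90. Without microglia replicate 2 or 3 the lower genes were 3, and without TAM replicate 2 the counts were 13 and 5.

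**Figure D4:**
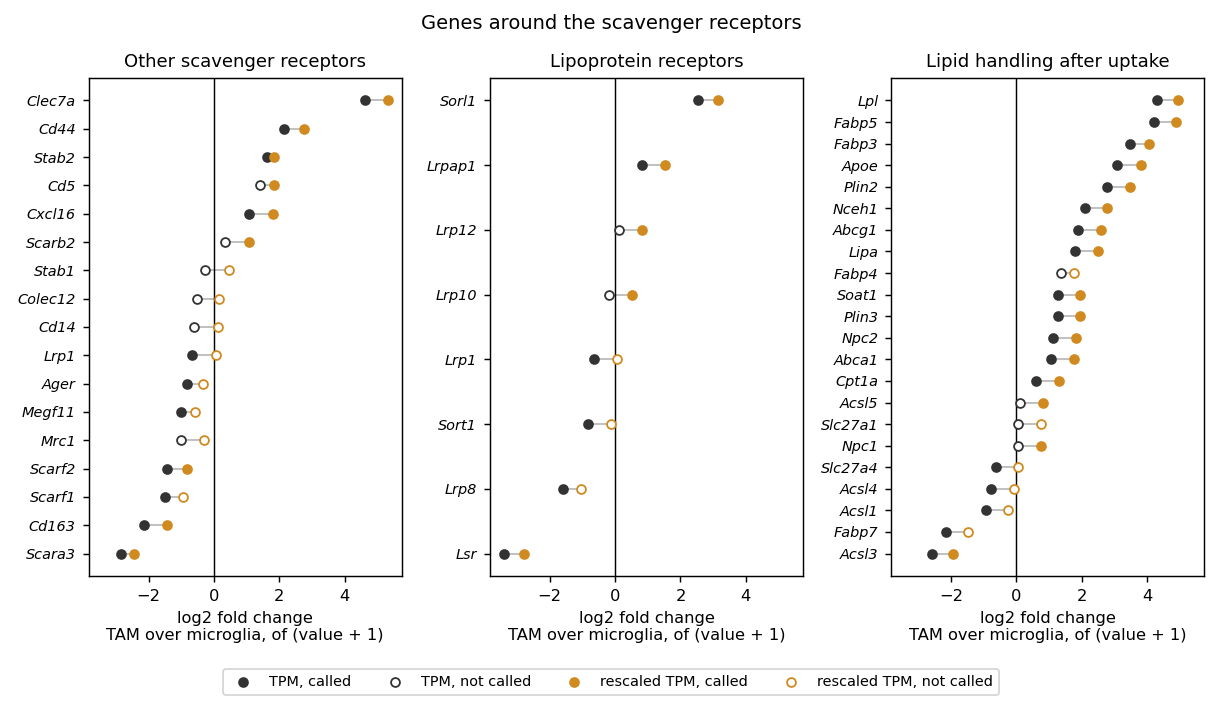
Log2 fold change of TAMs over microglia of (value + 1) (horizontal axes) for tested genes of 3 lists (1 gene is not shown), on TPM in black and on rescaled TPM in orange; filled points passed an adjusted p of 0.05. Most genes of the panel titled lipid handling after uptake, which also holds the lipase gene Lpl, lie to the right. Other scavenger receptors and lipoprotein receptors lie on both sides of 0.

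Of 24 tested receptors and machinery genes for engulfing dead cells, 4 were higher and 14 lower, where 8.22% of all tested genes were higher and 56.4% lower. On rescaled TPM they were 5 and 5, where the shares were 24.6% and 25.1%. The median log2 fold change was -0.69, so the list as a whole was near all tested genes. Axl, a phosphatidylserine-sensing receptor kinase, was at 367 ± 38.8 TPM in TAMs (SD, n = 5), against 29.5 ± 8.79 TPM in microglia (SD, n = 3) (log2 fold change 3.63). Its relative Mertk was at 88.9 ± 18.8 TPM in TAMs, against 243 ± 19.4 TPM in microglia (log2 fold change -1.47). Elmo1, which activates Rac during engulfment, fell by 2.01 and the receptor gene Cd300lb rose by 2.35 on the log2 scale. Without microglia replicate 2 or 3 the lower genes were 7 and 8 of 21 tested, and with age as a covariate they were 9 of 24.

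Among co-receptors and kinases that act with CD36, the SR-B1 adaptor Pdzk1 and the caveolin gene Cav1, 1 was higher and 5 lower of 15 tested of 16 (5 and 1 rescaled), against 8.22% and 56.4% of all tested genes (24.6% and 25.1% rescaled). Cav1, abundant in endothelium, was at 0.559 ± 0.446 TPM in TAMs (SD, n = 5), against 39.5 ± 17.1 TPM in microglia (SD, n = 3) (log2 fold change -4.64). Tlr4 and Tlr6, which pair with CD36 in sensing oxidized lipoprotein, had log2 fold changes of -0.61 and -0.70 on TPM, but 0.08 and -0.03 on rescaled TPM, where neither was called. Vav1, a Rac activator, had -0.73 and -0.02 on these scales. The single higher gene on TPM was Fcer1g, a signalling adaptor, with a log2 fold change of 0.85. It falls outside the rule for named genes and was chosen after its values were seen. Fcer1g was called on rescaled TPM as well. Without TAM replicate 2 the higher genes were 2.

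Of 17 transcription factors known to act on scavenger receptor genes, 1 was higher and 8 lower on TPM, and 8 were higher and 1 lower on rescaled TPM. Over all tested genes the shares moved too, being 8.22% higher and 56.4% lower on TPM and 24.6% and 25.1% on rescaled TPM. Nr1h2, which encodes an oxysterol receptor, had log2 fold changes of -1.06 and -0.35 on these scales and was lower on both. Stat6, Cebpa and Cebpb were lower on TPM, at -0.99, -0.91 and -1.13, and not called on rescaled TPM. The higher one, Rxra, the partner of many nuclear receptors, stood at 0.41 on TPM and 1.11 on rescaled TPM and was also chosen after its values were seen. The higher factors on TPM were 3, 4 and 2 without TAM replicates 1, 2 and 5. Rxra was no longer called on TPM without any 1 microglia library.

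Likeness of profile was measured as the root-mean-square distance between centred log2(TPM + 1) values over the 8 libraries, where 0 is identical. The gene closest to Msr1 was Pgk1, a glycolytic enzyme, at 0.15, followed by Hdc at 0.21 and Ptpn7 at 0.23. For Cd68 they were Tnfaip2 (0.16), Cotl1 (0.16) and Cstb (0.17), the last an inhibitor of cathepsins. Closest to Cd36 were Trem3 (0.18), Gsr (0.18) and Sh3bgrl2 (0.21), and to Scarb1 they were Tnfsf12 (0.15), Trim25 (0.16) and Zfp503 (0.16). For Marco they were Itgb7 (0.13), Stap1 (0.18) and Dppa3 (0.22), and for Olr1 they were Serpinb2 (0.26), Siglec1 (0.27) and H2-DMa (0.29). None of the 6 receptors was among the 3 genes closest to another.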

How the data were processed

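The authors deposited 1 table for 8 libraries, 5 of TAMs and 3 of microglia, with TPM per library, per the file headers. It also holds the authors' DESeq2 mean signal per gene, log2 fold change and unadjusted p-value, per the file headers. Per the submitters' processing notes, the authors used the build mm10 with FastQC and DESeq2; which aligner, quantifier and annotation served is not stated in those sources. TPM keeps no depth, so no counting error is given; deposited TPM summed to 990422 to 997832 per library, and 12683 to 14242 genes reached 1 TPM in TAMs, against 14375 to 16619 in microglia. Rpl3, a ribosomal protein gene that every cell uses, was at 391 to 860 TPM in TAMs and 1.65 to 2.79 TPM in microglia; the cause was not tested. A further 3 unnamed columns were not used.

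The 15262 genes that reached 1 TPM in 3 or more libraries were fitted with limma 3.58.1 (intensity trend, R 4.3.3) on log2(TPM + 1) without covariates, and p-values adjusted by Benjamini-Hochberg over all of them at 0.05. The fit was tested on simulated data. Copies were searched with blastn 2.17.0. Promoter sequences are from RefSeq, build GRCm38.p6. The 6 genes and the 18 gene lists were chosen with earlier results of these data known. Named genes are the 6, the 3 nearest profiles of each called one, and, from each pathway or microglia list, at most 4 called genes with the lowest p; of lists of other cell types, counts and sums are given. Alternatives covered scaling, pseudocount, filter, age, a replicate block, the trend, the authors' deposited values and leaving out each library. Age varied among TAM mice alone and all were older than the microglia mice, so the age fit does not separate age from group. The values of 1 listed gene are not reported here; it stays in the counts of its list.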

Additional observations from a re-analysis of the deposited data

Results flagged for a closer look

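Each library was compared with the other 4 TAM libraries for 121 tested genes of the receptors and their surrounding lists and for 9 summed marker lists. Of these 130 comparisons 14 had a library apart from the others by Dixon's test, where chance flags about 1 in 20 groups. TAM replicate 2 was the library apart in 8, TAM replicate 5 in 5 and TAM replicate 1 in 1.

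In TAM replicate 2, Marco was at 6.85 TPM against 0.574 to 1.28 TPM in the other TAM libraries. In the same library Pparg, a nuclear receptor for fatty acids, was at 27.2 TPM against 1.40 to 3.12 TPM, and Fabp4, a fatty acid carrier, at 34.5 TPM against 1.28 to 3.09 TPM. Cd44, a hyaluronan receptor, was at 49.0 TPM against 9.87 to 15.8 TPM, Scarf1 at 5.51 TPM against 1.14 to 1.79 TPM and Myd88 at 62.2 TPM against 36.1 to 42.6 TPM. Lower there were Scarb2, at 158 TPM against 242 to 275 TPM, and Lrpap1, at 109 TPM against 184 to 200.4 TPM.

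TAM replicate 5 was high in Colec12, at 88.2 TPM against 8.16 to 23.0 TPM, in Tyro3, at 1.06 TPM against 0.132 to 0.267 TPM, and in Adgrb1, at 0.821 TPM against 0.0409 to 0.258 TPM. Its granule lineage markers summed to 84.2 TPM against 6.90 to 18.4 TPM and its platelet markers to 9.39 TPM against 4.65 to 5.71 TPM. In TAM replicate 1, Xkr8 was at 3.91 TPM against 2.61 to 2.80 TPM.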

How the results depend on the processing

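Msr1, Olr1 and Cd68 kept their direction and call under every alternative that could test them; at least 5 TPM in 3 libraries left Olr1 and Marco untested. Cd36 was not called without the filter on low values (0.86, adjusted p = 0.0657) or with age as a covariate (0.49), and Marco not without the filter (1.32, adjusted p = 0.0572). Leaving out single libraries gave log2 fold changes of 0.64 to 1.03 on TPM and 1.30 to 1.77 on rescaled TPM for Cd36, and of 0.92 to 1.5 and 1.11 to 1.74 for Marco; calls were lost in 6 of 16 fits for Cd36 and 11 of 16 for Marco, which on rescaled TPM was lost without TAM replicate 1, 3 or 4 or any 1 microglia library, and Cd36 there without microglia replicate 3. Scarb1 was not called with the replicate block (0.68, adjusted p = 0.0576), which changed no other call of the 6 genes. Deviations of same-numbered libraries had correlations of 0.18, 0.02 and -0.05 for numbers 1 to 3, within the -0.30 to 0.23 of all number combinations. Pairing by number was thus not seen, but so few libraries cannot exclude it.

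Genes higher and lower in TAMs numbered 1254 and 8610 on TPM, 3755 and 3837 on rescaled TPM, 3177 and 3131 with the replicate block on rescaled TPM, and 4763 and 4324 in the authors' deposited table (17.6% and 16.0% of genes with a p-value). Leaving out single libraries gave 894 to 1303 higher and 5581 to 9243 lower on TPM, and 2485 to 3943 higher and 2144 to 4068 lower on rescaled TPM. Small values changed sign for Sort1 (0.01), Vav1 (0.09), Tlr4 (0.19) and Tlr6 (0.07) in the authors' deposited table, for Tlr4 on rescaled TPM (0.08), and with the replicate block on rescaled TPM for Vav1 (0.05) and Tlr4 (0.16). Without single libraries, on either scale, Vav1 ranged from -0.75 to 0.05, Tlr4 from -0.68 to 0.15 and Tlr6 from -0.77 to 0.05. The cause was not tested. TPM carries no depth, so the error of low values such as Marco and Olr1 in microglia is unknown.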

Other observations

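TAM replicate 2 held the highest levels of Pparg, Fabp4 and Cd36 together, genes chosen after their values were seen. PPAR-gamma is known to act on Fabp4 and Cd36, but a link between them in this single library was not tested. Nr1h3, which encodes an oxysterol receptor, was also highest there, at 26.7 TPM against 5.28 to 13 TPM in the other TAM libraries, with 2.27 to 7.66 TPM in microglia. Clec7a went the other way, at 179 TPM in TAM replicate 2 against 316 to 554 TPM in the other TAM libraries, with 10.1 to 19.4 TPM in microglia. Retnlg, a neutrophil gene, was at 132 TPM in TAM replicate 2 against 6.67 to 16.2 TPM in the other TAM libraries, and Ccr2, a monocyte receptor, at 48.3 TPM against 2.62 to 17.0 TPM.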
